A study of Homo sapiens with 2 samples.

Results

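The genes described here are those that encode integrin subunits and laminin chains. Every probe whose gene name in the scanner files was ITGA or ITGB with a subunit number or letter, or LAMA, LAMB or LAMC with a chain number, was taken. The rule gave 63 probes on 99 spots for 38 genes, of 41000 probes on the array, and 6 probes with look-alike names (integrin-binding proteins and ITGBL1) were left out. The members were 26 integrin genes with 43 probes and 12 laminin genes with 20 probes. The study measured RNA of PC3 cells, an established line from a bone metastasis of prostate cancer, after transient knockdown of SUB1, a transcriptional coactivator. On 1 array, cells given SUB1 siRNA 1 (labelled with Cy5) were set against cells given Non-T siRNA, the non-targeting control duplex (labelled with Cy3), and a second array did the same for SUB1 siRNA 2. All cells, controls included, were transfected and then transfected again, and were harvested 72 h after the first round. Each siRNA had 1 array, there was no dye swap, and whether both arrays carried the same Non-T extract is not stated in the sources used here.

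Integrins are cell-surface receptors in which an alpha and a beta subunit pair to bind matrix proteins outside the cell and the actin or keratin cytoskeleton inside it. Laminins are matrix proteins built as trimers of 1 alpha, 1 beta and 1 gamma chain, and they form the sheet of the basement membrane on which epithelial cells sit. Prostate epithelium holds on to that sheet mainly through laminins that contain the LAMA3 or LAMA5 chain and through integrins that contain ITGA6 or ITGA3, and changes in both families are well known in invasive prostate cancer.

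Values are log2 ratios with the SUB1 knockdown over the Non-T control, so that a negative value means less signal after knockdown, and levels are log2 intensities of 1 channel. SUB1 itself checked which channel held the knockdown, but it cannot tell siRNA 1 from siRNA 2. Its brightest probe read -3.30 (siRNA 1) and -3.26 (siRNA 2), which left 10.2% and 10.4% of the Non-T signal. Of 4 SUB1 probes, 3 passed limma's test over both arrays (adjusted p = 0.0124) and the other, the dimmest, did not (adjusted p = 0.104). That dimmest probe read -1.81 and -1.57, or 28.6% and 33.8% of the Non-T signal. A probe was kept if either of its channels cleared the scanner software's background test on each array, as 25673 probes did. The Cy5 channel cleared background on 67.2% and 64.5% of gene spots and the Cy3 channel on 54.3% of them on either array, no spot was saturated, and the median SD between the spots of 1 probe was 0.078 and 0.074 over 209 probes printed 10 times. The 4 epithelial markers looked at (KRT8, KRT18, EPCAM, CDH1) were all kept. The leukocyte marker PTPRC was not, and of 3 KLK3 probes the reference-transcript probe was below background while a probe for a splice variant was bright. Of 16 leukocyte, endothelial, fibroblast and platelet markers, 10 were kept (CD3E, CD14, CD68, PECAM1, VWF, DCN, LUM, PDGFRA, GP9 and GP1BA). Their log2 ratios ran from -0.29 to 0.47 on the first array and from -0.37 to 0.58 on the second. Their Non-T levels on the first array ran from 6.36 (VWF) to 9.45 (GP9). Those of the epithelial markers ran there from 6.91 (CDH1) to 13.39 (KRT18). The part of these 10 markers in the results below was not tested. RNA was measured in bulk, so fewer cells of a type and less RNA per cell cannot be told apart.

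Of the 63 member probes, 39 probes for 29 genes were kept. Of these, 29 probes for 23 genes were well above background in all 4 channel readings. The other 10 were too dim in the Non-T channel on 1 or both arrays (ITGA11, ITGA9, ITGA2B, ITGAM, ITGB8, LAMA1, 2 probes of ITGA2 and 1 of ITGB3), and where a lower bound on their increase could be set it was between at least 1.01-fold and at least 1.14-fold. For 9 genes no probe was kept, and none of their probes was well above background in any channel. These were ITGA1, ITGA10, ITGA8 and ITGB6, the leukocyte subunits ITGA4, ITGAD, ITGAL and ITGAX, and LAMB4. Probes were thus kept for 18 of the 26 integrin genes and 11 of the 12 laminin genes.

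As a group the members had a median near the centre of the array with siRNA 1 and a lower one with siRNA 2. The median log2 ratio of the kept members was 0.0036 with siRNA 1 and -0.064 with siRNA 2, beside 0.014 and 0.015 over all kept probes. Of the 29 members well above background in all 4 readings, 22 were below 0 with siRNA 2, beside 50.5% of all probes that passed that filter. Their median was -0.0047 with siRNA 1 and -0.112 with siRNA 2, beside -0.0016 and -0.0032 over all such probes. With median centring of each array in place of loess, the siRNA 2 median of the 39 kept members was 0.048, and that of all kept probes was 0.104. By a 2-fold cut-off, 2 member probes were lower with siRNA 1, beside 0.557% of all kept probes, and 0 were higher, beside 0.191%. Both are named ITGB1 in the files, but the array annotation places 1 of them, A_24_P598836, on another chromosome. The count of 2 became 1 with the processed signals or the authors' table, and 0 with median centring. In these 3 settings, 422, 123 and 71 of the 25673 kept probes were 2-fold lower with siRNA 1. With siRNA 2 no member passed the 2-fold line, where 0.923% of all kept probes were lower and 0.526% were higher. Over both arrays, limma called 0 of 39 members, beside 0.0117% of all kept probes, which were the 3 SUB1 probes. The count at an unadjusted p under 0.05 was 8 members (6 lower, 2 higher), or 8 of 39, beside 21.2% of all kept probes (10.5% lower, 10.7% higher), a share close to the background. The 6 lower probes belonged to LAMB3, LAMA5, ITGA6, ITGA5 and ITGB1, and the 2 higher probes were those of LAMA4 and LAMB1.

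**Figure D1:**
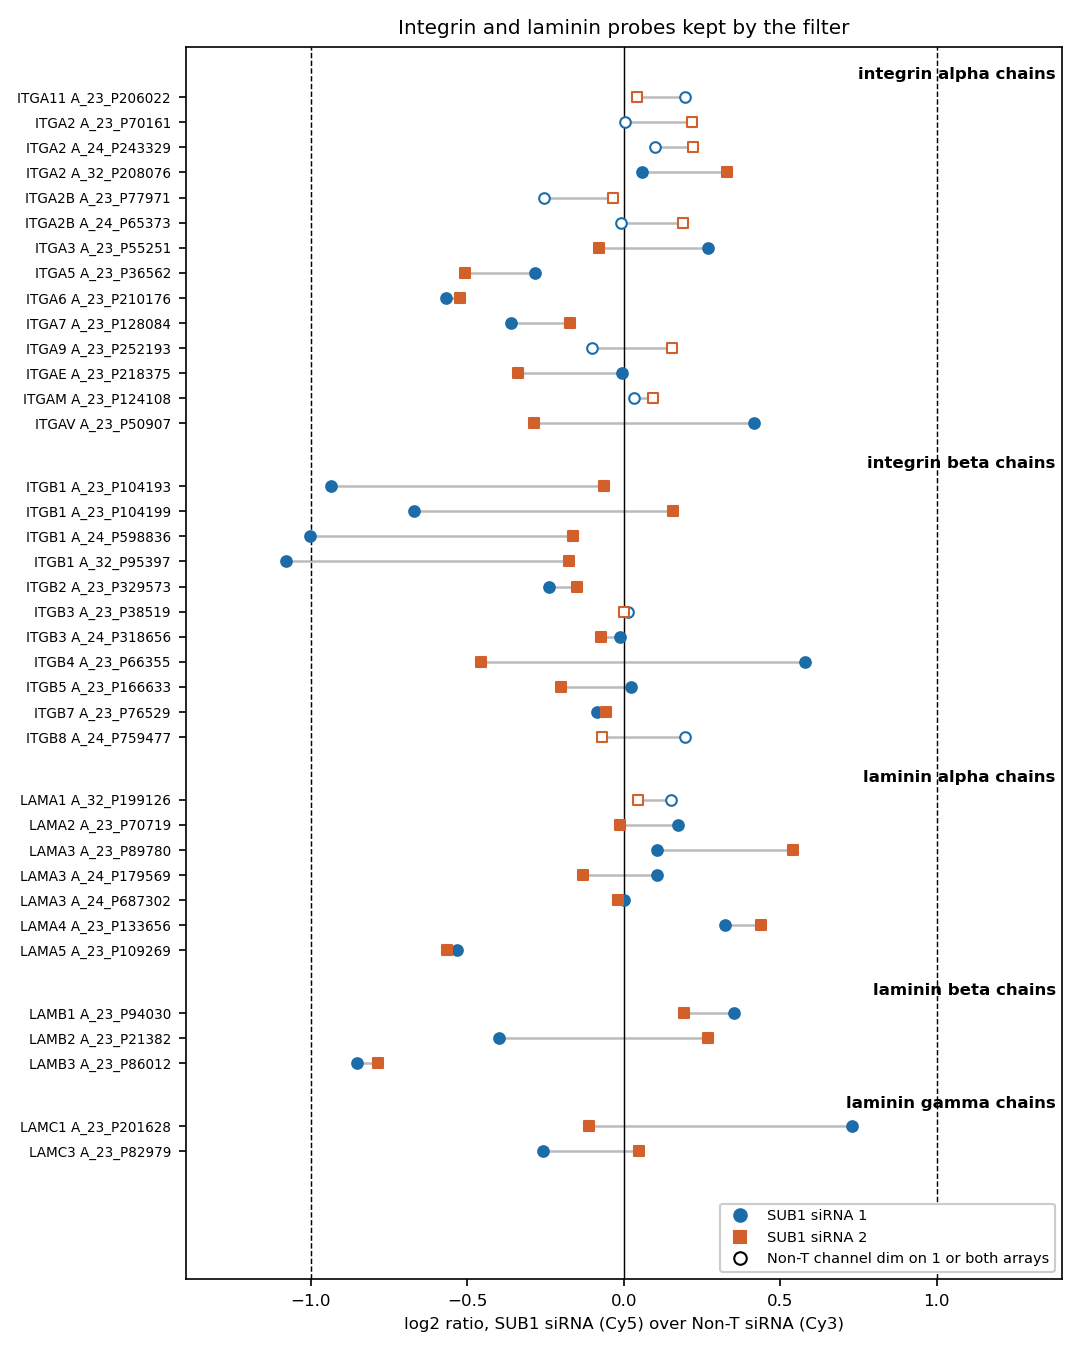
Log2 ratio (knockdown over Non-T control) for 37 of the 39 kept probes, by chain type, with siRNA 1 as blue circles and siRNA 2 as orange squares joined by a line; dashed lines mark a 2-fold change and open symbols mark probes whose Non-T channel was dim on 1 or both arrays. Short lines far from 0 (LAMB3, LAMA5, ITGA6) mark probes lower with both siRNAs, and long lines mark probes that differed between them (the 4 ITGB1 probes, ITGB4, LAMC1).

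The members that were lowest with both siRNAs were LAMB3, LAMA5 and ITGA6. These were the 3 members lower by at least 0.5 on the log2 scale with both siRNAs (3 of 39, beside 1.78% of all kept probes), and 0 members were higher by that much with both, beside 1.28%. The count depended on the processing. It was 1, LAMB3, with median spot signals or the authors' table, and 0 with median centring (beside 0.666% of all kept probes), where LAMB3 read -0.45 and -0.35, LAMA5 read -0.37 and -0.41, and ITGA6 read -0.34 and -0.29.

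LAMB3 encodes the beta chain of the laminin that anchors epithelial cells through hemidesmosomes. Its probe (chr1:207854901-207854960, minus strand, hg18) read a level of 15.04 in Non-T cells and 14.19 in SUB1 siRNA 1 cells on the first array, and 14.98 and 14.19 on the second. Both knockdown readings were below both control readings. The log2 ratios were -0.85 and -0.78, which is 55.4% and 58.1% of the Non-T signal. The mean was -0.82 ± 0.09 (limma's moderated SE, n = 2 arrays). This SE draws on the spread of all kept probes and is not the spread between the 2 arrays alone. LAMB3 had the lowest adjusted p of all members, 0.104 by limma, which did not pass; without the filter on dim probes it was 0.0319, in a fit that called 577 probes in place of 3.

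LAMA5 encodes the alpha chain of the main laminin of adult epithelial basement membranes. Its probe (chr20:60318697-60318756, minus strand, hg18) read a level of 8.68 in Non-T cells and 8.15 with siRNA 1, and 8.63 and 8.06 on the second array. The ratios of -0.53 and -0.57 differed by 0.035, less than the spread between spots of 1 probe. The mean was -0.55 ± 0.09 (limma's moderated SE, n = 2 arrays, limma adjusted p = 0.110), so it did not pass the test either.

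ITGA6 encodes the alpha subunit that binds laminins, in a pair with either ITGB1 or ITGB4. Its probe (chr2:173078802-173078861, plus strand, hg18) read 10.37 in Non-T cells and 9.80 with siRNA 1, and 10.39 and 9.86 on the second array. Both knockdown levels again lay below both control levels. The ratios were -0.57 and -0.52. The mean was -0.55 ± 0.09 (limma's moderated SE, n = 2 arrays, limma adjusted p = 0.111).

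The study searched a longer stretch upstream of genes lower after SUB1 knockdown for motifs and compared it with genes that did not change. Its rule for a changed gene was 2-fold, which LAMB3, LAMA5 and ITGA6 did not meet on either array. The upstream sequence of these 3 genes is shown, with LAMA3 beside LAMB3 because the 2 chains are built into 1 trimer. RefSeq (GRCh38.p14) gave an entry for 26 of the 38 genes, with 33 start sites. The 250 bases before each start were searched on both strands for the GC box (GGGCGG), the CCAAT box (CCAAT), the TATA box (TATAAA) and the AP-1 site (TGANTCA), none of which contains another, and matches are in capitals. For a gene with several starts, the one with the most matches is shown. The sequences run 5′ to 3′ on the strand of the gene and end at the base before the start.
LAMB3, chr1:209651375-209651624, minus strand: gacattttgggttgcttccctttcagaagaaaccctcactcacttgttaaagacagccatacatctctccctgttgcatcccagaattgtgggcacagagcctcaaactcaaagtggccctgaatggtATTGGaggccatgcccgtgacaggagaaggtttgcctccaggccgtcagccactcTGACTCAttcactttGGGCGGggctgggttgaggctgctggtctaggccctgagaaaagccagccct
LAMA3, chr18:23872770-23873019, plus strand: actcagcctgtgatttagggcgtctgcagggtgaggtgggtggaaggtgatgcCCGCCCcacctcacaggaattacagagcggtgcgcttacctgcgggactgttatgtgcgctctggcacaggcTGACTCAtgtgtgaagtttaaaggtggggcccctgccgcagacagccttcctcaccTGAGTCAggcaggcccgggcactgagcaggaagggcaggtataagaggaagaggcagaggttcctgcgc
LAMA5, chr20:62367313-62367562, minus strand: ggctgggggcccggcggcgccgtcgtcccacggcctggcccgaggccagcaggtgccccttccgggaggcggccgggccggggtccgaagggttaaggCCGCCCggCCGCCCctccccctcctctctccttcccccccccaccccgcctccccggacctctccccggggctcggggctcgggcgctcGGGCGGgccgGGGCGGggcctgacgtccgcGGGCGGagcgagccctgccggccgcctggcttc
ITGA6, chr2:172427336-172427585, plus strand: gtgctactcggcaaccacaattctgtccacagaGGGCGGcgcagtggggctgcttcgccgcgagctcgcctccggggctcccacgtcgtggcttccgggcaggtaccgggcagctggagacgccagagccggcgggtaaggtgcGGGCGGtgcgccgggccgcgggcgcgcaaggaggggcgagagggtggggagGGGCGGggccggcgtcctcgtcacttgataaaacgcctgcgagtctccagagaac

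LAMA5 held 5 GC boxes and no other match, in a stretch that was 82.8% G and C, and the ITGA6 start held 3 GC boxes. The LAMB3 start shown held 1 GC box, 1 CCAAT box and 1 AP-1 site, and LAMA3 held 1 GC box and 2 AP-1 sites. Over the members, 17 of 33 starts had a GC box, beside 42.6% of all 35116 promoters in the table, and 5 had a CCAAT box, beside 32.0%. A TATA box was found at 2 member starts (10.7% of all promoters) and an AP-1 site at 2 (6.57%). The starts with an AP-1 site were the LAMB3 start shown and that of LAMA3. LAMB3 has 3 starts, and the starts not shown held 1 GC box each and no other match. Their stretches overlap and share that GC box, which was counted at both.

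Among the integrin alpha subunits, 14 of 27 probes for 11 of 18 genes were kept. Their median log2 ratio lay close to 0 (-0.00058 for siRNA 1, 0.0029 for siRNA 2), and 7 of 14 were below 0 with either siRNA. ITGA5, the alpha subunit of the main fibronectin receptor, read a level of 8.76 in Non-T cells and 8.48 with siRNA 1, and 8.77 and 8.26 on the second array. Its ratios were -0.28 and -0.51, with the knockdown readings below both control readings (limma adjusted p = 0.158). ITGA7, a laminin-binding subunit best known in muscle, read -0.36 and -0.17. The level of ITGA7 was 9.60 and 9.66 in Non-T cells, 9.23 with siRNA 1 and 9.49 with siRNA 2. Neither ITGA5 nor ITGA7 passed the test.

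ITGAV, the alpha subunit of receptors for vitronectin and other ligands with an RGD motif, was above the Non-T level with siRNA 1 and below it with siRNA 2. Its probe (chr2:187253540-187253599, plus strand, hg18) was printed on 10 spots. Levels were 8.83 in Non-T cells and 9.25 with siRNA 1 on the first array, and 8.81 and 8.52 on the second. The ratio was 0.42 ± 0.089 (SD over 10 spots) with siRNA 1, with spots from 0.26 to 0.54, and -0.29 ± 0.072 with siRNA 2, with spots from -0.43 to -0.19. No spot of one array lay in the range of the other. Spots measure the printing and scanning of 1 hybridisation, not the spread between cultures.

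ITGA3, which pairs with ITGB1 to bind the laminins of epithelial basement membranes, read 0.27 with siRNA 1 and -0.08 with siRNA 2, the latter turning to 0.14 in 1 of the other settings. ITGA2, a collagen receptor subunit, had 3 kept probes that read 0.0036, 0.10 and 0.06 with siRNA 1 and 0.22, 0.22 and 0.33 with siRNA 2. The brightest of the ITGA2 probes was the only one above background in all 4 readings, at 8.17 and 8.23 on the first array and 8.27 and 8.60 on the second. ITGA11, a collagen-binding subunit on a dim probe, read 0.20 and 0.042. ITGAE, a partner of ITGB7 that binds E-cadherin, read -0.0047 and -0.34.

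Of 11 probes for the 8 leukocyte subunits, 4 probes for 4 of the subunits were kept, those of ITGAE, ITGAM, ITGB2 and ITGB7. Their ratios ran from -0.24 to 0.031 on the first array and from -0.34 to 0.093 on the second. ITGB2, the shared beta chain of leukocyte integrins, was printed on 10 spots and read -0.24 ± 0.053 and -0.15 ± 0.10 (SD over 10 spots). The defining leukocyte marker PTPRC was not kept, and the kept markers CD3E, CD14 and CD68 had ratios of -0.0032, 0.098 and -0.29 with siRNA 1 and of 0.085, 0.10 and 0.58 with siRNA 2. The platelet subunit ITGA2B had 2 kept probes, with ratios of -0.25 and -0.0082 with siRNA 1 and -0.036 and 0.19 with siRNA 2.

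Among the integrin beta subunits, 11 of 16 probes for 7 of 8 genes were kept. The members that crossed the 2-fold line were all here. All carried the name of ITGB1, the beta chain that most laminin, collagen and fibronectin receptors share. Its 4 probes were lower with siRNA 1 and close to the Non-T level with siRNA 2.

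Probe A_32_P95397 (chr10:33229449-33229508, minus strand, hg18), the one nearest the 3′ end, read a level of 16.44 in Non-T cells and 15.36 with siRNA 1, and 16.14 and 15.96 on the second array. Probe A_23_P104193 (chr10:33237405-33237464) read 13.87 and 12.94, and then 13.85 and 13.78. Probe A_23_P104199 (chr10:33240513-33240572), printed on 10 spots, read 12.02 and 11.36, and then 12.10 and 12.26. In all of them the siRNA 1 reading was the lowest of the 4. The remaining probe, A_24_P598836, is named ITGB1 in the files but placed by their annotation on another chromosome, and it read 13.43 and 12.43, and then 13.43 and 13.27.

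The log2 ratios of the 4 ITGB1 probes with siRNA 1 were -1.08, -0.93, -0.67 and -1.0 in that order, or from 47.3% to 62.9% of the Non-T signal. With siRNA 2 they were -0.18, -0.06, 0.16 and -0.16, and the sign of the 3 negative ones turned in at least 1 other setting. The 10 spots of A_23_P104199 ran from -0.85 to -0.36 on the first array and from 0.11 to 0.27 on the second and did not overlap. The difference between the siRNAs was between 0.83 and 0.90 in all 4 probes. The Non-T level of A_32_P95397 differed by 0.30 between the arrays, while that of the other 3 probes differed by at most 0.080. The limma adjusted p over both arrays ran from 0.227 to 0.531 for the 4 probes, and with 1 array per siRNA the difference between siRNAs has no test.

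ITGB4, the partner of ITGA6 in hemidesmosomes, had the largest difference between the siRNAs among the members. Its probe (chr17:71265173-71265232, plus strand, hg18) read 10.28 in Non-T cells and 10.86 with siRNA 1, and 10.03 and 9.58 on the second array. The ratio was 0.58 with siRNA 1 and -0.46 with siRNA 2, a difference of -1.03. Both chains of the ITGA6 and ITGB4 receptor were thus below the Non-T level with siRNA 2 and on opposite sides of it with siRNA 1.

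The remaining beta chains read closer to 0. ITGB5, a partner of ITGAV, read 0.025 and -0.20, and ITGB7 read -0.085 and -0.058. ITGB3, another partner of ITGAV, read 0.014 ± 0.082 and 0.00086 ± 0.12 (SD over 8 and 10 spots) on a probe whose Non-T channel was dim, and -0.013 and -0.072 on a brighter probe. ITGB8 read 0.20 and -0.070 on a dim probe, and no probe of ITGB6 was kept.

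**Figure D2:**
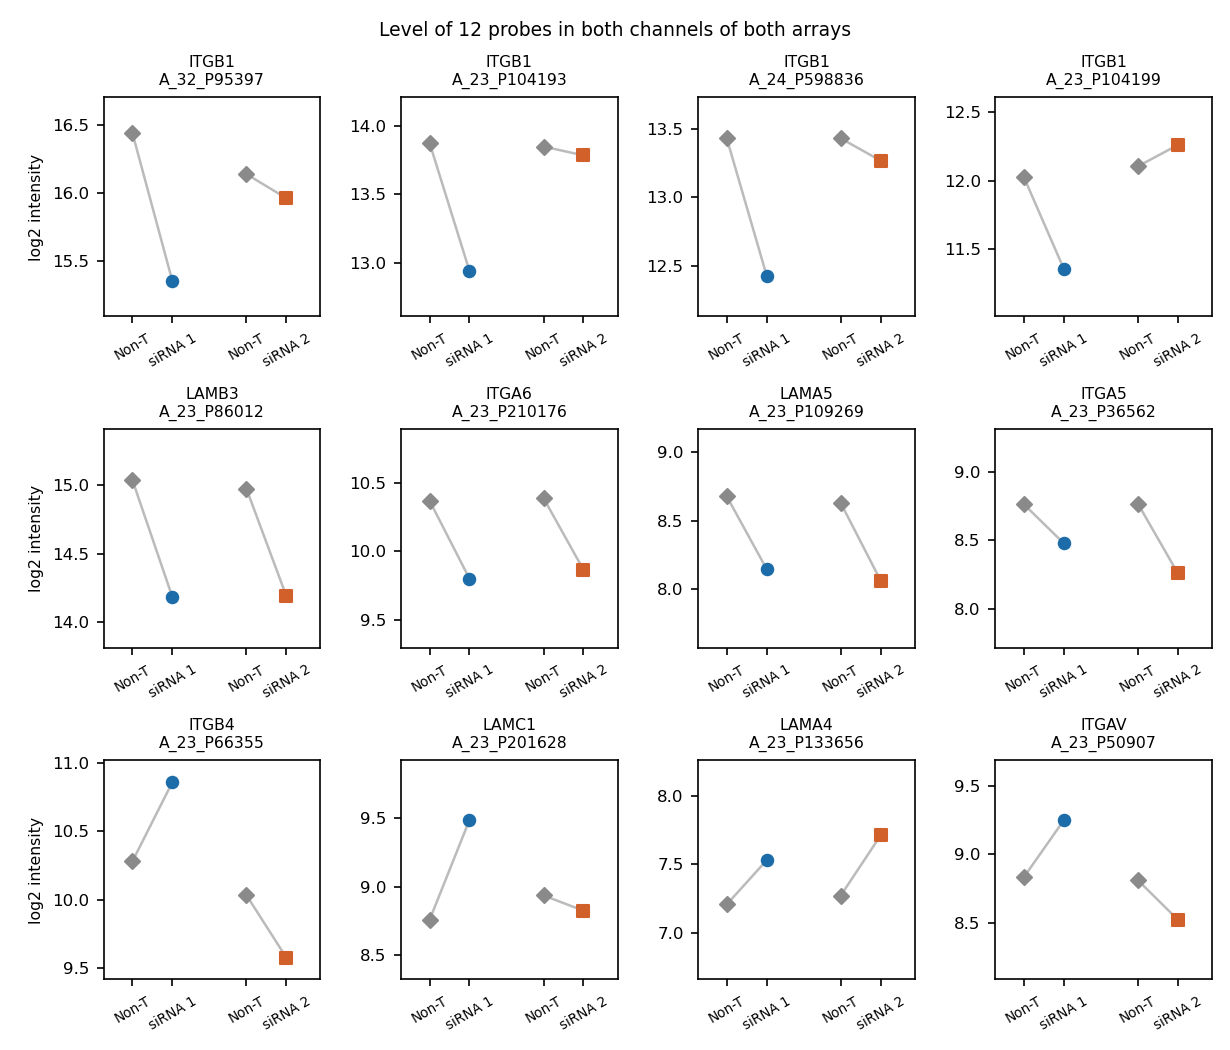
Level (log2 intensity) of 12 probes in the Non-T channel (grey diamonds) and the knockdown channel (blue circles for siRNA 1, orange squares for siRNA 2) of each array; every panel spans the same height on its own level axis. The siRNA 1 reading is the lowest of the 4 for every ITGB1 probe, both knockdown readings lie below both Non-T readings for LAMB3, ITGA6, LAMA5 and ITGA5 and above them for LAMA4, and ITGB4 and ITGAV lie above Non-T with siRNA 1 and below it with siRNA 2; no probe shown passed limma's test.

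Differences between the siRNAs were common among the members. The log2 ratio was at least 0.5 higher with siRNA 2 for 5 of 39 probes (4 named ITGB1 and that of LAMB2), beside 4.24% of all kept probes. It was at least 0.5 lower for 5 (those of ITGB4, LAMC1 and ITGAV among them), beside 4.4%. The median size of the difference was 0.22 over the members and 0.16 over all kept probes. The Non-T levels of the members differed between the arrays by -0.0084 at the median, with an SD of 0.12 and a range from -0.30 to 0.29. These counts include several probes of the same gene, which are not separate genes.

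Among the laminin alpha chains, 7 of 11 probes were kept, for all 5 genes. LAMA4, an alpha chain of laminins in vessel walls and connective tissue, read 7.21 in Non-T cells and 7.53 with siRNA 1, and 7.27 and 7.71 on the second array. Its ratios of 0.32 and 0.44 were both above 0, and both knockdown readings exceeded both control readings (limma adjusted p = 0.149). LAMA3 had 3 kept probes that disagreed. The brightest (chr18:19788733-19788792, plus strand, hg18) read 10.59 and 10.69 on the first array and 10.43 and 10.97 on the second, for ratios of 0.11 and 0.54. A second probe (chr18:19765096-19765155) read 0.0015 and -0.020. The third, whose annotated position runs from 19707174 to 19710311, read 0.11 and -0.13. The higher reading of LAMA3 with siRNA 2 thus rested on 1 probe of 3. LAMA1 and LAMA2 read 0.15 and 0.17 with siRNA 1, and 0.046 and -0.012 with siRNA 2.

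Among the laminin beta chains, 3 of 5 probes were kept, 1 for each of LAMB1, LAMB2 and LAMB3. LAMB1, the beta chain of the most widespread laminins, read 11.06 and 11.42 on the first array and 11.06 and 11.26 on the second, for ratios of 0.35 and 0.19 (limma adjusted p = 0.229). LAMB2, the beta chain of laminins at synapses and in the kidney filter, read 10.92 and 10.52, and then 10.87 and 11.13. LAMB2 was thus lower with siRNA 1 (-0.40) and higher with siRNA 2 (0.27). LAMB3, described above, differed by 0.069 between the arrays.

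Among the laminin gamma chains, LAMC1, the gamma chain of most laminins, read 8.76 in Non-T cells and 9.49 with siRNA 1, and 8.94 and 8.83 on the second array. The ratio of 0.73 with siRNA 1 was the highest of any member, and with siRNA 2 it was -0.11 (0.072 in 1 other setting). LAMC3 read -0.26 and 0.049.

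The chains can also be set out as trimers. In the laminin of LAMA5, LAMB1 and LAMC1, siRNA 1 gave -0.53, 0.35 and 0.73 and siRNA 2 gave -0.57, 0.19 and -0.11. In the laminin of LAMA4, LAMB1 and LAMC1, siRNA 1 gave 0.32, 0.35 and 0.73, all above 0, and siRNA 2 gave 0.44, 0.19 and -0.11. The trimers share LAMB1 and LAMC1. With median centring LAMC1 read 0.072 with siRNA 2, on the same side of 0 as LAMA4 and LAMB1. The median of all kept probes in that setting was 0.104, so LAMC1 stayed below it.

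**Figure D3:**
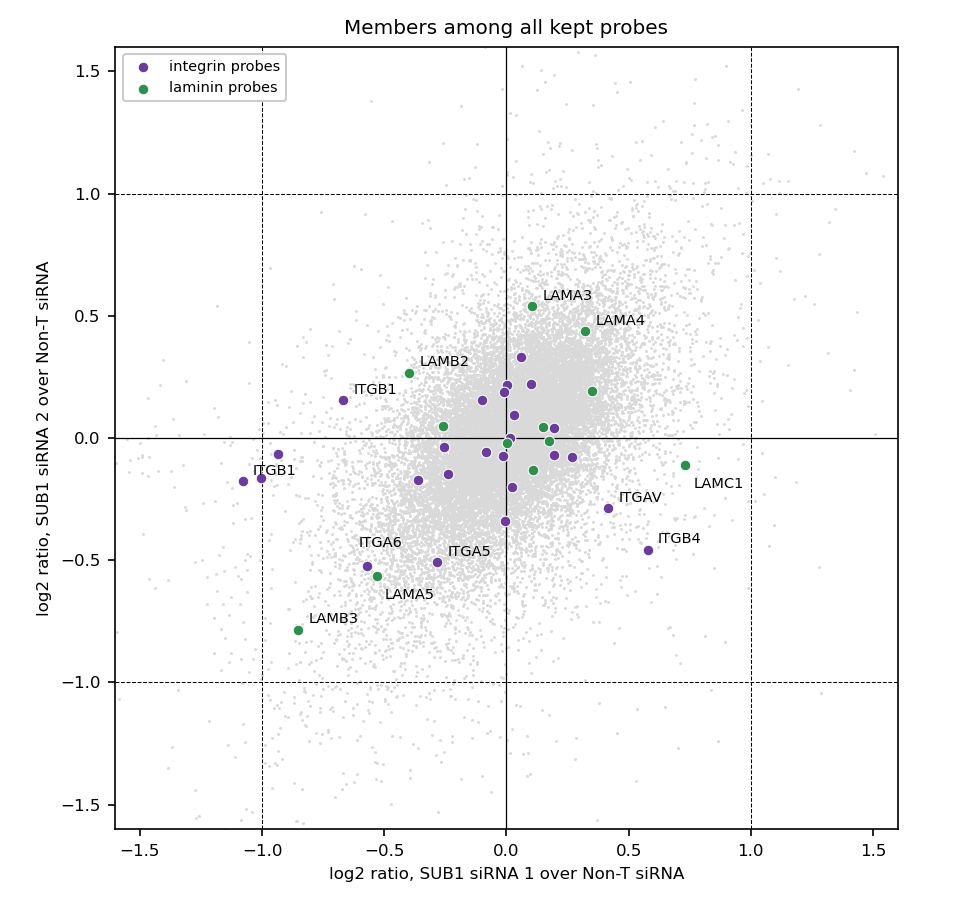
Log2 ratio with SUB1 siRNA 1 (x axis) against that with SUB1 siRNA 2 (y axis) for 37 of the 39 kept members, as integrin probes (purple) and laminin probes (green), and for the kept probes that are no members (grey); the arrays share a control condition, so the shape of the cloud is no measure of agreement, and 76 probes, none of them members, lie beyond the axes. LAMB3, LAMA5 and ITGA6 lie at the lower left, ITGB1 at the left near the x axis, and ITGB4, ITGAV and LAMC1 at the lower right.

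The genes that work with integrins and laminins were read by the brightest kept probe of each, beside 19218 genes read the same way, whose median ratio was 0.024 with siRNA 1 and 0.023 with siRNA 2. With siRNA 1, 0.609% of those genes were at least 2-fold lower and 0.203% at least 2-fold higher, and with siRNA 2 the shares were 1.07% and 0.614%. No gene of the 3 lists passed limma in either direction.

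Of 33 genes listed as integrin adaptors and kinases, a list that also holds other proteins such as RAP1A and CAV1, 29 were kept. Their median was -0.17 (siRNA 1) and -0.27 (siRNA 2). With median centring in place of loess it was -0.011 and -0.11, beside 0.108 and 0.104 over all kept probes. That setting put 21 of 29 below 0 with siRNA 2, beside 34.7% of all kept probes. With siRNA 2, 25 of 29 were below 0, beside 46.5% of all genes, and with siRNA 1, 18 of 29 were, beside 45.9%. FERMT1 (kindlin-1), which activates integrins by binding their beta tails, read 10.48 in Non-T cells and 9.35 with siRNA 1, and 10.44 and 9.56 on the second array. Its ratios of -1.13 and -0.88 made it the 1 gene of the list past 2-fold, with siRNA 1 (limma adjusted p = 0.104). With median centring FERMT1 read -0.90 and -0.65, and no adaptor was past 2-fold. TNS4, a tensin of focal adhesions, read -0.37 and -0.96, and CAV1 (caveolin-1) read -0.43 and -0.62. At an unadjusted p under 0.05 there were 9 of 29, or 31.0%, beside 21.9% of all genes.

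Of 34 integrin ligands other than laminins, 24 were kept, and their median was 0.043 (siRNA 1) and -0.0031 (siRNA 2). No ligand was past 2-fold on either array, and 9 of 24, or 37.5%, had an unadjusted p under 0.05, beside 21.9% of all genes. THBS1 (thrombospondin-1), an adhesive matrix protein, read 0.71 and 0.78, and CCN1, a matricellular ligand of ITGAV integrins, read -0.80 and -0.65. NPNT (nephronectin), a basement membrane protein, read 0.52 and 0.59 (limma adjusted p between 0.104 and 0.110 for the 3). These 3 had the largest mean ratios of the list, with opposite signs among them.

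Of 17 laminin partners and hemidesmosome genes, 13 were kept, and their median was -0.15 (siRNA 1) and 0.011 (siRNA 2), while 4 of 13, or 30.8%, had an unadjusted p under 0.05, beside 21.9% of all genes. SDC1 (syndecan-1), a heparan sulfate proteoglycan that binds laminin, read -0.63 and -0.59. DST, the gene of the hemidesmosome plakin BPAG1, read 0.64 and 0.45. DAG1 (dystroglycan), a laminin receptor that is no integrin, read -0.67 and -0.09. SDC1 and DST kept their side of 0 on both arrays, in opposite directions, and neither passed limma (adjusted p = 0.105 and 0.117).

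**Figure D4:**
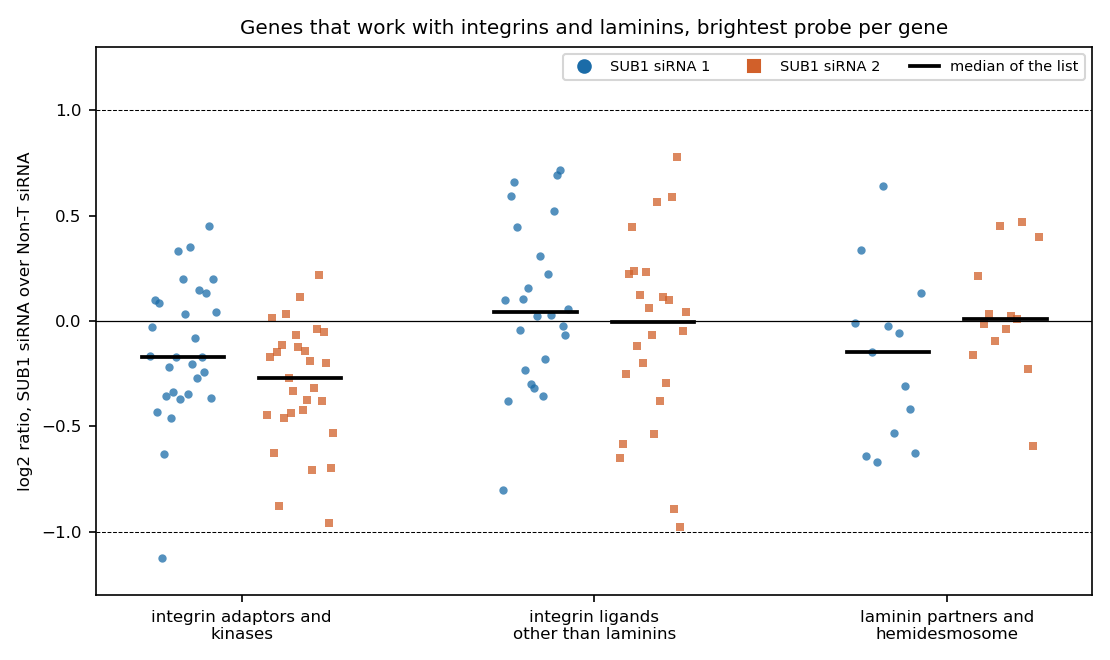
Log2 ratio (knockdown over Non-T control) for the kept genes of 3 lists (29 adaptors and kinases, 24 ligands, 13 laminin partners), by the brightest probe of each gene, with siRNA 1 in blue circles, siRNA 2 in orange squares, a black bar at each median and dashed lines at 2-fold. With siRNA 2, 25 of 29 adaptors lie below 0, beside 46.5% of all genes. With median centring in place of loess it is 21 of 29, beside 34.7% of all kept probes. The ligands and laminin partners lie on both sides of 0.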

How the data were processed

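Gene expression in PC3 cells was measured on 2 dual-colour Agilent arrays of 1 slide, 1 for each SUB1 siRNA. The authors scanned the arrays with Agilent Feature Extraction 9.5.1.1 and deposited the intensity of each spot in both channels (arbitrary units, with local background). They also deposited a table of normalised log2 ratios. Its column medians (-0.0055 and -0.0069), the correlation across probes with loess ratios of the median signals (r = 0.958 and 0.970) and slopes of 1.01 and 1.02 gave scale and direction, Cy5 over Cy3, and its centring is not stated.

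Mean signals were corrected with normexp (offset 50) and loess normalisation (span 0.3) followed, both with limma 3.58.1 and R 4.3.3. Control spots and outlier spots (112 and 100) were left out, and the spots of a probe were averaged. Probes well above background on at least 0.5 of their spots in 1 channel on both arrays were kept. Levels are channel intensities after Aquantile scaling. A lower bound sets the bright channel over the higher of the dim channel's own level and the lowest level well above background on that array.

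The cut-off for a changed gene was 2-fold, as in the study's methods. The ratio over both siRNAs was tested against 0 with limma (lmFit, eBayes, Benjamini-Hochberg over all 25673 kept probes, two-sided). This test takes the siRNAs as independent knockdowns and leaves out the control's own spread, and a dye bias cannot be separated from knockdown. Simulated arrays with known changes were used to test the script. Nothing says that the arrays came from separate cultures beyond the siRNA given, so the spread may be technical.

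Members named with values were SUB1, members past 2-fold or limma, the 8 genes with the largest mean increase and decrease, the 4 with the largest difference between siRNAs in each direction, genes with several kept probes, the chains of known pairs and trimers, leukocyte subunits, and the 3 largest of each list. Of the genes these rules name, 1 member is not reported here, though the counts and medians over the members include its probes. The members and lists were chosen with earlier results of these data known. Probe coordinates are those of the array annotation (hg18, NCBI build 36, per the file headers). RefSeq holds the accession of 59 of the 63 member probes, all with the same symbol. Exon and intron positions of the probes were not analysed here. The software's own ratios and p-values in the scanner files were not used.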

Additional observations from a re-analysis of the deposited data

Results flagged for a closer look

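For 4 of the member probes reported here the 2 siRNAs gave opposite directions, each by more than 2 median spot SDs of its array. The difference (siRNA 2 minus siRNA 1, log2) was -1.03 for ITGB4, 0.83 for the ITGB1 probe A_23_P104199, -0.70 for ITGAV and 0.67 for LAMB2. The difference was not tested, since each siRNA had 1 array. The Non-T level moved between the arrays by -0.25 for the ITGB4 probe, by 0.080 for the ITGB1 probe, and by -0.022 and -0.055 for those of ITGAV and LAMB2, and its part in the differences was not tested. ITGB1 and ITGAV rest on 10 spots each and the other 2 on 1 spot.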

How the results depend on the processing

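Of 176 recomputed group values (member counts and medians, SUB1, and the gene lists), 153 kept their call or moved by less than the spot spread, and none turned sign past 2-fold; of 502 values of named probes, 381 moved by less than that spread. LAMB3, LAMA5, ITGA6, ITGA5, LAMA4, LAMB1, ITGAV, ITGB4 and LAMB2 kept their directions on both arrays in all settings, and ITGB1 was lower with siRNA 1 in all of them. Ratios nearer to 0 turned sign in some setting, among them those of ITGA3, ITGA7, LAMC1 and 3 ITGB1 probes with siRNA 2. Median centring in place of loess put the median of all probes at 0.108 and 0.104 (siRNA 1 and 2). It left 0 member probes 2-fold lower with siRNA 1, gave a member median of 0.048 with siRNA 2, SUB1 ratios of -3.04 and -3.00, adaptor medians of -0.011 and -0.11 with 0 adaptors past 2-fold, and ligand medians of 0.24 and 0.12. Feature Extraction processed signals left 1 member probe 2-fold lower with siRNA 1, beside 422 of 25673 kept probes, and 2 higher with siRNA 2, beside 1162. They also gave 2 adaptors past 2-fold and an adaptor median of -0.38 with siRNA 2, 2 ligands past 2-fold with siRNA 1 and 2 with siRNA 2, and 1 laminin partner with a median of -0.40 with siRNA 1. With processed signals, 832 of all kept probes were 2-fold higher with siRNA 1 and 677 were lower with siRNA 2. The authors' table left 1 member probe 2-fold lower with siRNA 1, beside 123 of all kept probes. It gave a SUB1 ratio of -3.15 with siRNA 2 and a laminin partner median of -0.25 with siRNA 1. The brightest probe per gene left 1 member 2-fold lower with siRNA 1, beside 0.609% of all genes. The stricter filter gave a laminin partner median of -0.23 with siRNA 1. Without the filter, limma called 1 member, LAMB3 (adjusted p = 0.0319), and 577 probes in all against 3; its adjusted p ran up to 0.168 elsewhere. Of all probes past 2-fold, the higher share was 25.5% and 36.3%, but 66.3% and 63.2% with processed signals, 70.4% and 72.9% with median centring, and 36.6% and 48.2% in the authors' table. The cause was not tested. No paired analysis was possible because each siRNA had 1 array, and no array could be left out or slide fitted as a block, as both lie on 1 slide. Signal over background limits the dim probes of ITGA11, ITGA9, ITGA2B, ITGAM, ITGB8 and LAMA1.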
